A study of Mus musculus with 167 samples.

Results

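The 10 genes described here code for growth factor receptors of mesenchymal cells, and for growth factors that such cells secrete. Pdgfra, Pdgfrb, Fgfr1, Fgfr2, Egfr, Met and Igf1r code for the receptors, and Fgf7, Hgf and Igf1 for the growth factors. They were chosen by symbol, and all 10 were found by their Ensembl identifier among the 57010 genes of the deposited count table. Their RNA was followed through 41 groups of mouse libraries in which embryonic fibroblasts (MEFs) were driven towards dendritic cells with combinations of transcription factors.

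There were 3 factor combinations, each delivered by lentivirus. PIB combined Spi1, which encodes PU.1, with Irf8 and Batf3. PIP paired the same Spi1 with Irf4 plus Prdm1. SII was made of Spib together with Irf8 and Ikzf2. All 3 were used in the C9a line, whose MEFs are homozygous for a Clec9a Cre allele and for a Rosa26 tdTomato reporter, and C9a.SII denotes SII in that line. SII was used a second time in the hCD2 line (hCD2.SII), whose MEFs are heterozygous for hCD2 Cre, have a Rosa26 YFP reporter and a C57BL/6 background. The tdTomato or YFP label marks a cell in which the Cre was active, then or earlier. Transduced cells were kept on gelatin in medium with fetal bovine serum and sorted on days 3, 6 and 9. The gates were CD45 (the leukocyte surface protein encoded by Ptprc), the reporter, or both together, and cells of the last gate are called double positive. As controls without virus there were C9a.MEF and hCD2.MEF, with 4 libraries each, sorted as negative for both reporter and CD45. Dendritic cells isolated from wild-type spleen were the second kind of control: 3 libraries of type 1 conventional cells (cDC1), 3 of type 2 conventional cells (cDC2) and 5 of plasmacytoid cells (pDC). Each of the 41 groups had 3 to 5 libraries. The labels do not say whether libraries of a group came from separate cultures or animals, so the p-values measure only the spread between libraries.

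All 7 receptors are receptor tyrosine kinases: a ligand outside the cell pairs receptor chains, or in Igf1r turns on chains that are already joined, and the chains then phosphorylate each other and recruit adaptors such as Grb2 that lead to the Ras and ERK cascade. PDGF receptor alpha and beta are textbook markers of fibroblasts and other mesenchymal cells. In many tissues fibroblasts secrete Fgf7 and Hgf, which act on epithelial cells through Fgfr2 and Met, while Igf1 acts on cells of many types through Igf1r. Dendritic cells depend instead on the receptor kinase Flt3 and on cytokine receptors, although Met is also known in dendritic cells of the skin.

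In the GRCm38 (mm10) annotation the genes lie on 8 chromosomes. Pdgfra lies at chr5:75152292-75198215 on the plus strand, Hgf at chr5:16553495-16620152 (plus), Fgfr1 at chr8:25513654-25575718 (plus) and Egfr at chr11:16752203-16918158 (plus). Fgfr2 lies at chr7:130162451-133123350 (minus), Igf1r at chr7:67952827-68233668 (plus), Met at chr6:17463800-17573980 (plus), Fgf7 at chr2:126034658-126091185 (plus) and Igf1 at chr10:87858265-87937042 (plus). The deposited table has 1 row for each gene, and whether the counting used strand is not given in the sources used here. Reads therefore cannot be told apart with certainty from those of overlapping genes: on the other strand Egfros for Egfr, Igf1os for Igf1, Fam227b for Fgf7, Gm42802 and Gm42803 for Pdgfra and Gm16159 for Fgfr1, and on the same strand Mir7025 for Pdgfra and Gm43489 and Gm42975 for Hgf. The Fgfr2 model spans 36 other genes on its own strand and 33 on the other.

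The bases just before the start sites were taken from RefSeq (GRCm38.p6) and are shown because the cocktails carry transcription factors with known DNA motifs and the members moved in different directions. Windows of 250 bases ending at a RefSeq start were taken for 8 of the 10 members, with a second start for Hgf. Fgfr1 had no such entry, and Pdgfrb was left out of the search. They were searched on both strands for GAGGAA (the core of PU.1 sites), the composite element of ETS and IRF factors and the interferon-stimulated response element (ISRE). The last pattern was TGANTCA, a loose form of the AP-1 site, which Batf3 binds with Jun partners. The AP-1 site itself has C or G in the centre, where TGANTCA allows any base. The matches below are in capitals within 29 or 30 bases of the plus strand, and all other bases are in lower case.
Egfr, chr11:16752111-16752140, GAGGAA on the minus strand: cgcggagagcgcTTCCTCtctcctgacatt
Met, chr6:17463892-17463920, TGANTCA: tgttgcccggcTGAGTCAcgggccgggca
Hgf, chr5:16553436-16553465, GAGGAA on the minus strand: tgctgcttccccTTCCTCttttcccagata
Hgf, chr5:16553708-16553737, GAGGAA: ggggggggggttGAGGAAaggaaggggctg
Igf1, chr10:87861039-87861068, GAGGAA: gggacgatggggGAGGAAgggaaggagctg
Igf1, chr10:87861063-87861091, TGANTCA: gagctggaactTGAATCActattctggat
Of 32851 windows of the same length, 23.3% held GAGGAA, 2.3% the composite, 2.98% the ISRE and 6.75% TGANTCA. The windows of Pdgfra, Fgfr2, Igf1r and Fgf7 held none of these motifs, and that of Pdgfra is shown as an example.
Pdgfra, chr5:75152001-75152250: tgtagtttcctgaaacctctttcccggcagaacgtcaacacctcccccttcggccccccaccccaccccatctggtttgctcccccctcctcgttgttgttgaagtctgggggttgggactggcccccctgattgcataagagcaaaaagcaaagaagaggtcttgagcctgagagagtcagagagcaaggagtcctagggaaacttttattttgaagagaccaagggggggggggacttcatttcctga
A match is a run of letters, not a measured binding site. The TGANTCA match of Igf1 has A in the centre and so differs from the AP-1 site, while that of Met has G.

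The depth was 1146927 to 21976374 counts, with a median of 10960122, and all but 2 libraries had over 2000000. Levels are CPM, the usual scaling of counts to a common library total, given as mean ± SD where a group is summarised. At these depths 3 counts correspond to 0.137 to 2.62 CPM. A list of 8 fibroblast markers (such as Col1a1, Dcn and Postn) summed to 6227 to 7633 CPM in PIB, 977 to 1259 in PIP, 1676 to 2298 in C9a.SII and 677 to 7718 in hCD2.SII double positive cells on day 9. The same list summed to 14175 to 16462 CPM in hCD2.MEF and 15821 to 17095 in C9a.MEF. A list of 8 leukocyte markers summed to 440.2 to 581, 344 to 425, 462 to 739.7 and 419 to 802 CPM in the 4 transduced groups in that order, against 2.79 to 4.05 in hCD2.MEF and 2.37 to 3.93 in C9a.MEF. Macrophage markers were high in PIB cells, at 782 to 1278 CPM over 8 genes, and reached 99.004 to 135.2 in PIP, 88.5 to 261 in C9a.SII and 38.7 to 120.97 in hCD2.SII cells, against 15.7 to 19.8 in C9a.MEF. In the spleen, 8 dendritic cell markers summed to 14470 to 15215 CPM in cDC1, 13660 to 14563 in cDC2 and 2894 to 8900 in pDC.

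Several libraries stood apart. In hCD2.SII double positive cells on day 9, replicate 1 had 7718 CPM of the fibroblast markers, against 751 and 677 CPM in replicates 2 and 3, and 71.2 CPM of Ptprc against 228 and 271 CPM. Replicate 3 of the PIP double positive cells on day 3 had 14.1 CPM of Ptprc, against 84.4 and 82.6 CPM in the other libraries, and replicate 2 of C9a.SII on day 3 had 1.52 CPM, although both were sorted for CD45. Replicate 1 of pDC had 1838064 counts and 1152 CPM of the fibroblast markers, against 19.3 to 87.9 CPM in the other pDC libraries. Replicate 1 of C9a.SII double positive cells on day 9 had 1146927 counts. In 3 reporter-gated libraries the transduced factors went against the label: PIB day 6 replicate 4, PIP day 3 replicate 5 and C9a.SII day 6 replicate 5. These 3 entered the alternative fit over all 41 groups and no other test. For calls against fibroblasts that rest on the libraries named before these 3, the values without them are given as well. Those libraries were picked out after the data were seen. Without hCD2.SII replicate 1, only replicates 2 and 3 of its group remain. As that library was noticed partly by its fibroblast markers, a fall of fibroblast genes without it is not independent of the choice.

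Per kilobase of exon, which allows genes to be compared with each other, the most abundant members in untransduced C9a.MEF were Pdgfrb at 64.9 ± 0.87, Fgf7 at 53.3 ± 2.42, Fgfr1 at 52.9 ± 1.28 and Pdgfra at 49.3 ± 0.51 CPM per kilobase (SD, n = 4). Igf1r followed at 20.4 and Egfr at 13.5, and Met (5.19), Fgfr2 (4.63), Igf1 (3.00) and Hgf (1.69 CPM per kilobase) were the least abundant. On day 9 the order differed between cocktails. Fgfr1 led in PIB cells at 50.4 and in PIP cells at 14.8 CPM per kilobase, and Fgf7 led in C9a.SII cells at 32.5 and in hCD2.SII cells at 37.99 CPM per kilobase. In splenic cDC1 the most abundant member was Met, at 8.60 CPM per kilobase, and in cDC2 and pDC it was Fgfr1, at 3.52 and 8.02 CPM per kilobase. Across the 41 groups, the mean level in CPM was highest in C9a.MEF for Pdgfra, Pdgfrb, Fgfr2, Egfr, Igf1r and Fgf7, that is for 6 of the 10 members. Fgfr1 was highest in PIB reporter-gated cells on day 9 (658 ± 124.02 CPM, n = 5), Met in PIB CD45-gated cells on day 3 (129.5 ± 15.8 CPM, n = 4), Hgf in PIB double positive cells on day 9 (24.3 ± 2.59 CPM, n = 5) and Igf1 in C9a.SII CD45-gated cells on day 9 (53.3 ± 26.4 CPM, n = 4). Neighbouring groups in this order were mostly not separated: between 35 (Pdgfrb) and 40 (Fgf7 and Hgf) of the 40 neighbouring pairs overlapped in their libraries.

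Double positive cells on day 9 were compared with untransduced fibroblasts of their own line. A gene is said to have risen or fallen where the quasi-likelihood test of edgeR gave a Benjamini-Hochberg adjusted p under 0.05 over all genes and the change was at least 2-fold. Fold changes are those of the fit, which scales libraries by TMM factors. CPM levels are scaled by library totals alone, so ratios of CPM can differ from the fold changes near the limit. In PIB cells Met and Hgf rose while Pdgfra, Pdgfrb, Fgfr2 and Egfr fell. In PIP cells no member rose, and all fell except Met and Igf1r, which did not pass the 2-fold limit. In C9a.SII cells the 6 receptors other than Igf1r fell, and no growth factor gene was called. In hCD2.SII cells Met fell and Hgf rose. With replicates 2 and 3 of that group alone, without replicate 1, 7 members fell (of all genes, 17.3% then rose and 15.6% fell). Hgf, at just under 2-fold, was then no longer called. Without the shallow replicate 1 of C9a.SII the same 6 receptors fell.

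In counts, 2 members rose and 4 fell of 10 in PIB cells, where 10.4% of all genes tested rose and 11.4% fell. In PIP cells 0 rose and 8 fell, against 15.2% and 14.5% of all genes. In C9a.SII cells 0 rose and 6 fell, against 10.3% and 11.1%, and in hCD2.SII cells 1 rose and 1 fell, against 10.8% and 8.42%. DESeq2 gave the same member counts in these 4 comparisons, but for hCD2.SII cells it gave no adjusted p for 4 members (Pdgfra, Pdgfrb, Egfr and Igf1). The median log2 fold change of the 10 members was -0.46 in PIB, -2.29 in PIP, -1.28 in C9a.SII and -0.71 in hCD2.SII cells, and the median over all genes lay between -0.00026 and 0.047. In bulk RNA, a smaller share of cells that keep a gene on and less of its RNA in every cell cannot be told apart. The fibroblast markers moved with the members: 7 of 8 fell in PIB cells, 8 of 8 in PIP cells, 8 of 8 in C9a.SII cells and 2 of 8 in hCD2.SII cells (8 of 8 without replicate 1). The part of remaining fibroblasts in the members' levels was not tested.

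**Figure D1:**
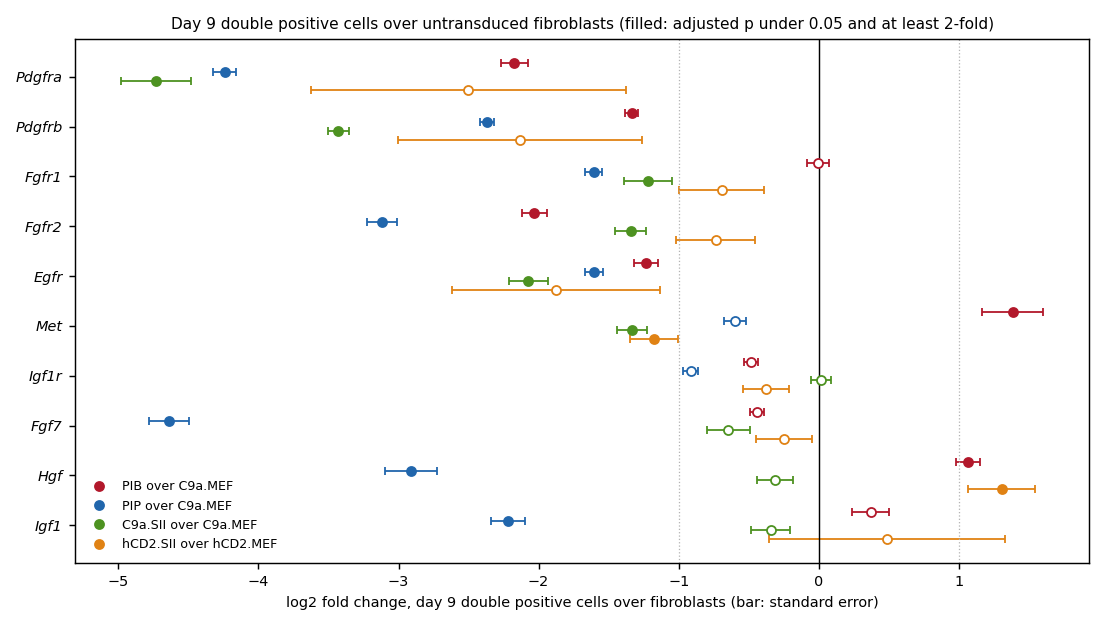
Log2 fold change of each member (rows) in double positive cells on day 9 over untransduced fibroblasts of the same line, with its standard error as a bar; filled points passed an adjusted p of 0.05 and a 2-fold change, and the dotted lines mark 2-fold. Points for Pdgfra run from -4.73 in C9a.SII to -2.17 in PIB, while Met and Hgf are the members with filled points right of 0.

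Pdgfra and Pdgfrb code for the alpha and beta receptors of the platelet-derived growth factors. On day 9 Pdgfra stood at 94.7, 94.7, 98.9, 96.7 and 142.7 CPM in the PIB libraries, 21.5, 23.1, 25.6 and 19.1 in PIP and 11.3, 14.2, 15.1 and 29.2 in C9a.SII, against 500.4, 494, 495 and 488 CPM in C9a.MEF. Every transduced library lay below every C9a.MEF library. The log2 fold change was -2.17 ± 0.10 (SE) in PIB (adjusted p = 1.6e-09), -4.24 ± 0.08 in PIP (adjusted p = 6.1e-16) and -4.73 ± 0.25 in C9a.SII (adjusted p = 5.0e-07). In the hCD2 line Pdgfra was at 184, 7.92 and 10.9 CPM in SII double positive cells, against 389, 375, 397 and 359 in hCD2.MEF, so that replicate 1 lay between the other transduced libraries and the fibroblasts. That comparison was not called (adjusted p = 0.12). Without replicate 1 the log2 fold change was -5.41 (adjusted p = 1.6e-12).

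Pdgfrb on day 9 was at 130.4, 141.95, 137.05, 128.8 and 135.9 CPM in PIB, 60.5, 58.4, 55.9 and 60.1 in PIP and 26.2, 36.1, 31.6 and 30.6 in C9a.SII, against 355, 359.6, 358 and 349 CPM in C9a.MEF. No transduced library overlapped with the fibroblasts, and the 3 cocktails did not overlap with each other. The log2 fold change was -1.34 ± 0.05 in PIB (adjusted p = 5.9e-11), -2.37 ± 0.05 in PIP (adjusted p = 1.4e-16) and -3.43 ± 0.07 in C9a.SII (adjusted p = 5.0e-10). In hCD2.SII cells it was at 172, 18.4 and 17.5 CPM, against 331, 281, 288 and 309 in hCD2.MEF. Without the first of these libraries the log2 fold change was -4.14 (adjusted p = 3.3e-12), and with it the gene was not called (adjusted p = 0.096).

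By day 3 both PDGF receptor genes were already low. Pdgfra fell with log2 fold changes of -3.29 ± 0.06 in PIB (adjusted p = 1.0e-13), -3.17 ± 0.12 in PIP (adjusted p = 1.3e-06), -3.59 ± 0.26 in C9a.SII (adjusted p = 1.5e-05) and -3.09 ± 0.09 in hCD2.SII cells (adjusted p = 6.5e-10). After that the cocktails differed. Pdgfra in PIB double positive cells averaged 42.8, 103.03 and 105.5 CPM on days 3, 6 and 9. It was higher on day 9 than on day 3, by a log2 fold change of 1.08 ± 0.11 (adjusted p = 2.0e-05). This call sat at the 2-fold limit: the log2 fold change was 0.98 with replicate number as a block and 0.98 without replicate 5 of day 9. In PIP cells Pdgfra averaged 51.7, 55.96 and 22.3 CPM on days 3, 6 and 9. Of its day 6 libraries, the highest was at 132.1 CPM, against a median of 31.2 CPM. Pdgfra was lower in PIP cells on day 9 than on day 3 (log2 fold change -1.08 ± 0.16, adjusted p = 0.0030). Without replicate 3 of day 3 that log2 fold change was -0.92 and below the 2-fold limit. Means in C9a.SII cells were 40.8, 53.6 and 17.4 CPM, with no call between days 9 and 3. In hCD2.SII cells the 2 day 9 libraries other than replicate 1 had 7.92 and 10.9 CPM, against 47.4, 45.3, 37.6 and 40.6 CPM on day 3, and without replicate 1 the log2 fold change was -2.25 (adjusted p = 2.8e-05).

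Pdgfrb also fell in every cocktail by day 3, with log2 fold changes of -1.93 in PIB, -1.48 in PIP, -3.13 in C9a.SII and -2.33 in hCD2.SII cells. Without the library of low Ptprc it was -2.96 in C9a.SII cells. Its means on days 3, 6 and 9 were 79.1, 125.9 and 134.8 CPM in PIB cells and 119.8, 78.8 and 58.7 CPM in PIP cells. Neither series had a called change between days 9 and 3 by the 2-fold limit. In C9a.SII cells the means were 39.3, 44.6 and 31.1 CPM.

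**Figure D2:**
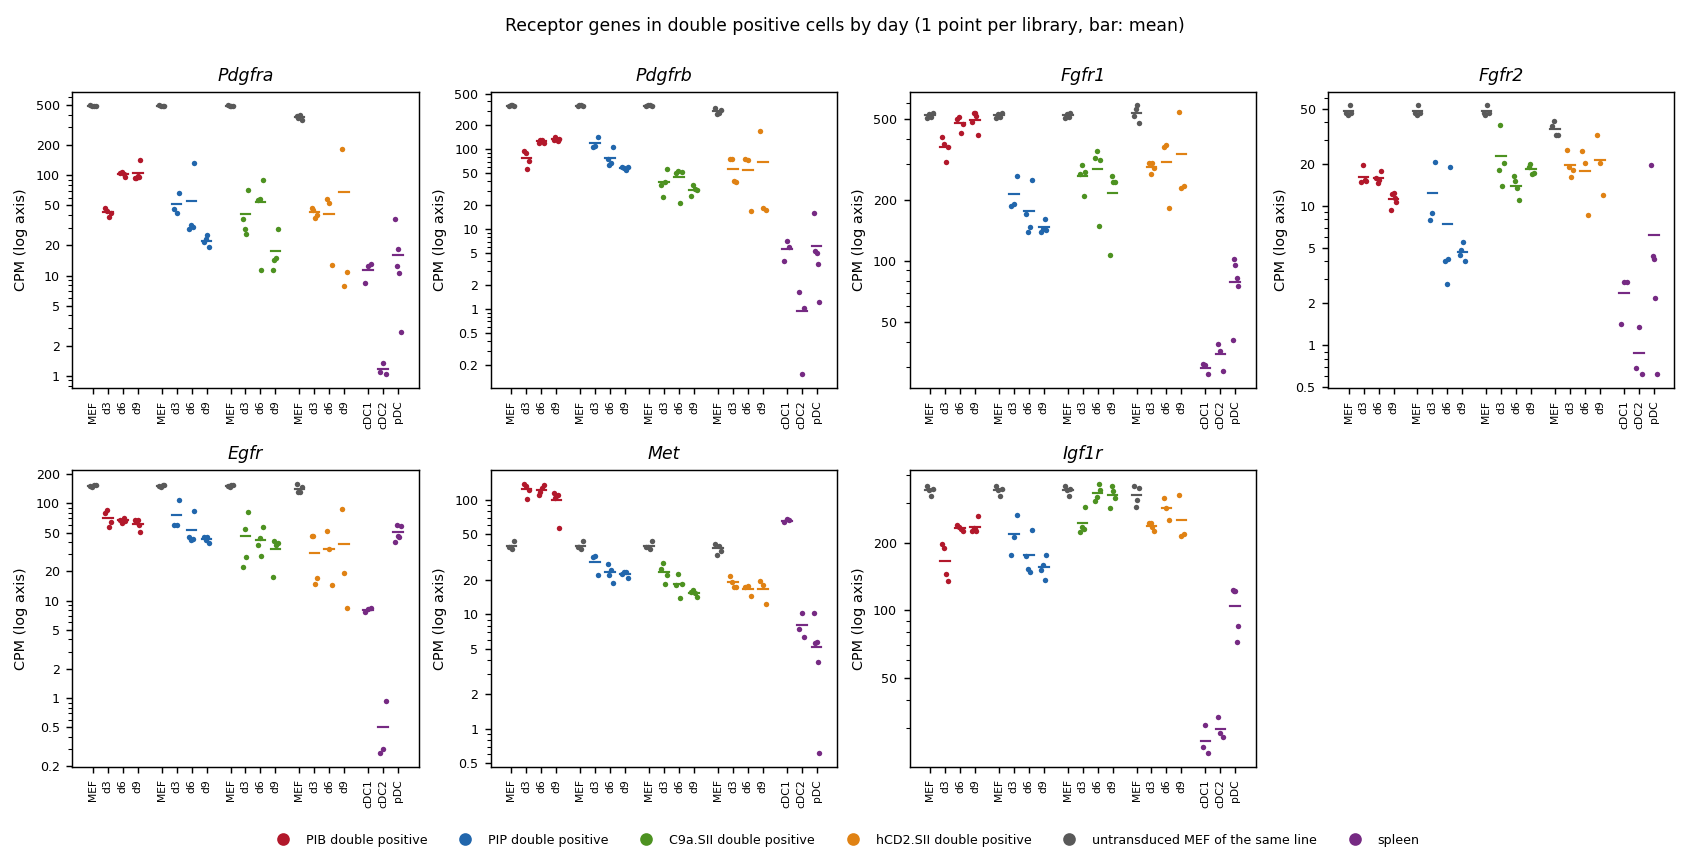
CPM (log axis) of the 7 receptor genes in double positive cells on days 3, 6 and 9 beside untransduced MEFs of the same line, with splenic cells at the right; each point is a library and each bar a group mean. Pdgfra lies at 42.8 CPM on day 3 and 105.5 CPM on day 9 in PIB cells, Met lies above its fibroblast level in PIB cells but not in the other transduced cells, and the single high hCD2.SII point on day 9 is replicate 1.

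Fgfr1 and Fgfr2 code for receptors of the fibroblast growth factors, and Fgfr2 has an isoform that binds Fgf7. Fgfr1 on day 9 was at 482, 534, 536, 517 and 419 CPM in PIB cells, against 509, 529, 515 and 537 CPM in C9a.MEF, so that the libraries overlapped. It was at 138.99, 143.1, 161.3 and 142.1 CPM in PIP and 107.2, 264, 245 and 245 CPM in C9a.SII cells, all below the fibroblasts, with log2 fold changes of -1.61 ± 0.06 (adjusted p = 2.4e-13) and -1.22 ± 0.17 (adjusted p = 0.00026). The lowest C9a.SII value, 107.2 CPM, was that of the shallow replicate 1, and without it the log2 fold change was -1.04. In hCD2.SII cells Fgfr1 was at 542, 229 and 234 CPM, against 519.8, 560.0, 586 and 479 CPM in hCD2.MEF. Without replicate 1 it fell (log2 fold change -1.28, adjusted p = 9.7e-08). On day 3 Fgfr1 had already fallen in PIP cells (-1.20 ± 0.09, adjusted p = 2.4e-05).

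Fgfr2, a less abundant gene in fibroblasts, was at 9.39, 12.3, 12.3, 11.3 and 10.6 CPM in PIB, 4.46, 4.79, 5.48 and 4.02 in PIP and 19.2, 19.99, 17.03 and 17.2 in C9a.SII cells on day 9, against 46.3, 45.3, 52.9 and 46.7 CPM in C9a.MEF. It fell in all 3, with log2 fold changes of -2.03 ± 0.09 (adjusted p = 5.2e-10), -3.12 ± 0.11 (adjusted p = 9.8e-14) and -1.34 ± 0.11 (adjusted p = 2.7e-06). The libraries of PIP lay lowest and those of C9a.SII highest, without overlap. The PIP means were 12.5, 7.46 and 4.69 CPM on days 3, 6 and 9. On day 6 the highest library was at 18.9 CPM, against a median of 4.09 CPM. The decrease between day 9 and day 3 (-1.25 ± 0.30, adjusted p = 0.027) was -0.78 and uncalled without replicate 3 of day 3.

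Fgf7, the keratinocyte growth factor, was low in PIP cells. On day 9 it was at 7.38, 4.33, 7.28 and 4.93 CPM in PIP cells, against 165.6, 182, 178 and 168 CPM in C9a.MEF, a log2 fold change of -4.64 ± 0.14 (adjusted p = 1.9e-10). It was at 113.9, 116.1, 124.9, 122.1 and 134.997 CPM in PIB and 54.9, 128.7, 110.5 and 127.6 CPM in C9a.SII cells, which lay below the fibroblasts but within 2-fold on average. In hCD2.SII cells it was at 174, 100.9 and 95.5 CPM, against 155.7, 137.5, 146.5 and 142.3 CPM in hCD2.MEF, and the libraries overlapped. Without replicate 1 the log2 fold change was -0.63 there, below the 2-fold limit. By day 3 the PIP libraries were at 7.30, 6.67 and 61.2 CPM. The high last value is the library with low Ptprc, and without it the log2 fold change on day 3 was -4.48 (adjusted p = 2.7e-19) instead of -2.81 ± 0.73 (adjusted p = 0.015). In PIB cells the day 3 libraries held 56.7, 49.6, 43.3 and 53.2 CPM, a decrease against C9a.MEF (-1.53 ± 0.07, adjusted p = 5.8e-10), and the gene rose again between days 9 and 3 (1.05 ± 0.07, adjusted p = 8.2e-07). In hCD2.SII cells on day 3 Fgf7 had fallen as well (-1.23 ± 0.29, adjusted p = 0.0073).

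Egfr codes for the receptor of epidermal growth factor and its relatives. It was at 66.9, 64.4, 67.5, 60.1 and 50.7 CPM in PIB, 44.9, 42.3, 44.9 and 39.1 in PIP and 17.4, 40.7, 37.7 and 38.9 in C9a.SII cells on day 9, against 152.6, 148.4, 154.3 and 154.5 CPM in C9a.MEF. All transduced libraries lay below the fibroblasts, and the log2 fold changes were -1.23 ± 0.09 (adjusted p = 6.1e-08), -1.60 ± 0.07 (adjusted p = 1.0e-12) and -2.07 ± 0.14 (adjusted p = 6.7e-07). Without the shallow replicate 1 of C9a.SII, the lowest of its group, the last value was -1.94. In hCD2.SII cells Egfr was at 88.3, 19.3 and 8.49 CPM, against 159.4, 131.9, 129.96 and 146.6 CPM in hCD2.MEF. These groups did not overlap either, but the spread of the SII libraries left the gene uncalled (adjusted p = 0.090), and without replicate 1 it fell (log2 fold change -3.40, adjusted p = 9.0e-05). By day 3 Egfr had fallen in C9a.SII (-1.72 ± 0.31, adjusted p = 0.0022) and hCD2.SII cells (-2.13 ± 0.39, adjusted p = 0.0026). In PIB and PIP cells the change in the fit was less than 2-fold. The mean CPM there was 71.4 in PIB and 76.1 in PIP cells, against 152.5 in C9a.MEF.

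Met codes for the receptor of hepatocyte growth factor. It rose in PIB cells and in no other cocktail. On day 3 it was at 138.4, 133.2, 102.4 and 122.5 CPM in PIB libraries, against 39.1, 38.9, 37.3 and 44.1 CPM in C9a.MEF, and it had risen by a log2 fold change of 1.88 ± 0.06 (adjusted p = 2.4e-11). On day 9 it was at 114.5, 104.4, 108.8, 110.8 and 56.3 CPM, with a log2 fold change of 1.38 ± 0.22 (adjusted p = 0.00057). The fifth of these libraries lay apart from the other 4 and still above every fibroblast library. In C9a.SII cells on day 9 Met was at 15.7, 16.2, 15.3 and 14.2 CPM, below the fibroblasts (-1.33 ± 0.11, adjusted p = 2.2e-06). In hCD2.SII cells it was at 19.6, 18.2 and 12.2 CPM, against 41.6, 33.3, 39.8 and 36.1 CPM in hCD2.MEF (-1.18 ± 0.17, adjusted p = 0.0017). Replicate 1 of hCD2.SII lay within 1.5 CPM of replicate 2 here, and without it the log2 fold change was -1.37. In PIP cells Met was at 22.4, 23.5, 23.3 and 20.7 CPM, below the fibroblasts by less than 2-fold.

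Hgf codes for the ligand of Met and was among the least abundant members. On day 9 it was at 23.6, 22.1, 27.3, 21.8 and 26.8 CPM in PIB cells, against 12.5, 11.9, 12.04 and 12.03 CPM in C9a.MEF, and had risen (1.07 ± 0.09, adjusted p = 2.2e-07). No libraries overlapped, and in a fit with the spread of all 41 groups the adjusted p was 0.076. In PIP cells Hgf was at 1.77, 1.25, 0.809 and 1.64 CPM and had fallen (-2.91 ± 0.19, adjusted p = 3.7e-10). In C9a.SII cells it was at 6.98, 11.8, 8.05 and 9.75 CPM and not called. In hCD2.SII cells it was at 22.4, 17.5 and 10.7 CPM, against 7.05, 6.16, 7.68 and 6.39 CPM in hCD2.MEF, and had risen (1.30 ± 0.24, adjusted p = 0.0041), with a log2 fold change of 0.99 without replicate 1. The effect of SII on Hgf was higher in the hCD2 line than in the C9a line by a log2 difference of 1.64 ± 0.27 in an interaction test (adjusted p = 0.011). The adjusted p of that interaction was 0.30 with replicate number as a block and 0.54 with the spread of all groups. The interaction was tested in double positive cells alone. These were sorted by a different Cre and reporter in each line, so the line and the cells selected cannot be told apart. On day 9 C9a.SII cells averaged 23.8 ± 11.6 CPM of Hgf in the CD45 gate and 19.1 ± 11.3 CPM in the reporter gate. In hCD2.SII cells the same gates averaged 17.9 ± 10.3 and 13.4 ± 0.814 CPM.

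On day 3 Hgf was at 2.86, 3.69, 1.64 and 1.07 CPM in hCD2.SII cells, below every hCD2.MEF library, a log2 fold change of -1.49 ± 0.30 (adjusted p = 0.0014). Between days 9 and 3 it rose in hCD2.SII cells (2.84 ± 0.42, adjusted p = 0.0063), and without replicate 1 of day 9 with a log2 fold change of 2.55. Means on days 3, 6 and 9 were 2.32, 12.4 and 16.9 CPM in hCD2.SII and 8.61, 18.1 and 24.3 CPM in PIB cells, and the PIB libraries rose between days 9 and 3 by a log2 fold change of 1.28 ± 0.11 (adjusted p = 6.0e-06). In PIP cells the means were 3.72, 2.69 and 1.37 CPM, and the day 6 libraries ran from 0.995 to 5.33 CPM with a median of 2.21 CPM. Hgf had fallen there by day 3 (-1.62 ± 0.15, adjusted p = 6.1e-05) and was lower still on day 9 than on day 3 (-1.31 ± 0.31, adjusted p = 0.023), but the second of these calls ended with replicate number as a block (adjusted p = 0.097). The PIP libraries of day 9, at 0.809 to 1.77 CPM, rested on 9 to 23 counts each. In C9a.SII cells the means on days 3, 6 and 9 were 6.78, 18.4 and 9.14 CPM. There 1 library of day 3 had 16.3 CPM, against 2.85 to 4.05 CPM in the other libraries. Without that library the log2 fold change of Hgf against fibroblasts on day 3 was -1.60 in C9a.SII cells. The library was picked out by its own Hgf level, so no call is taken from this value.

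**Figure D3:**
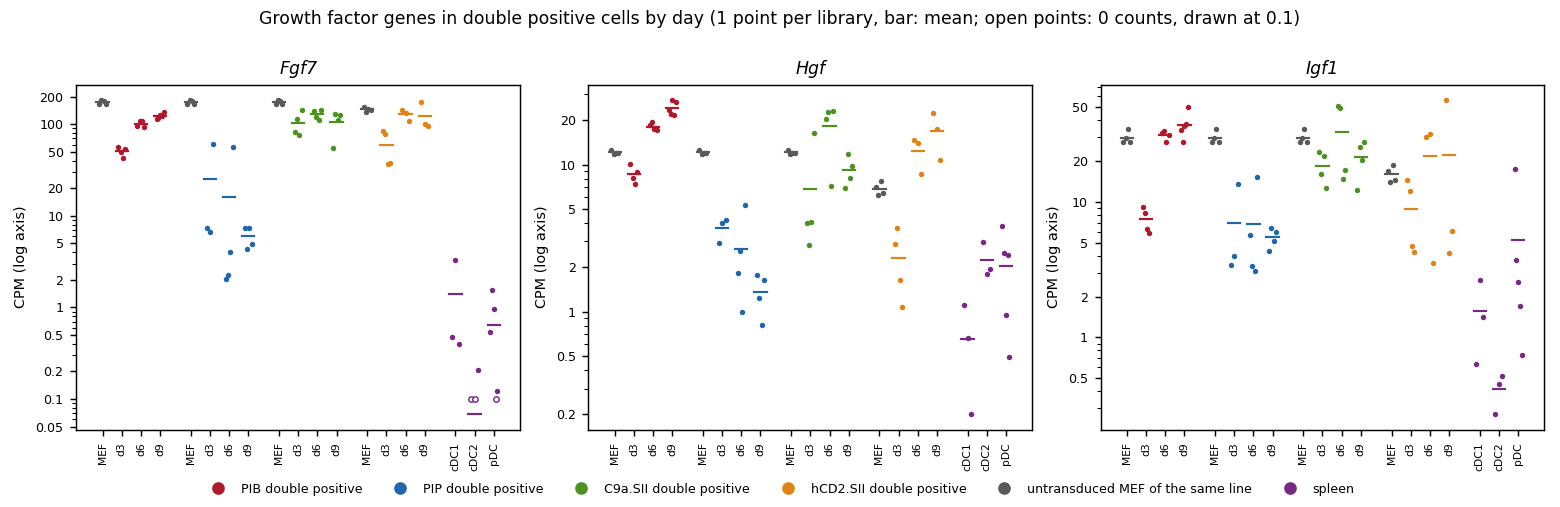
CPM (log axis) of the growth factor genes Fgf7, Hgf and Igf1 in double positive cells on days 3, 6 and 9 beside untransduced MEFs of the same line and splenic cells; each point is a library, each bar a group mean, and open points are libraries with 0 counts, drawn at 0.1. Hgf lies between 21.8 and 27.3 CPM in PIB cells and between 0.809 and 1.77 CPM in PIP cells on day 9, and Igf1 in PIB cells lies below the fibroblasts on day 3 but not on day 9.

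Igf1r codes for the receptor of insulin-like growth factor 1. It was called by edgeR in none of the 8 comparisons of transduced cells with fibroblasts: the adjusted p was under 0.05 in 6 of them, with changes below 2-fold in the fit. In CPM the means of PIP cells on day 9 (155.9) and PIB cells on day 3 (166.9) lay over 2-fold below C9a.MEF (343). On day 9 it was at 225 to 263 CPM in PIB, 136.02 to 177 in PIP and 285 to 360.0 in C9a.SII cells, against 324 to 360.1 CPM in C9a.MEF, and at 215 to 327 CPM in hCD2.SII cells, against 289.6 to 357 CPM in hCD2.MEF. Without replicate 1 of hCD2.SII its log2 fold change was -0.66, below the 2-fold limit. The C9a.SII libraries overlapped with the fibroblasts and the PIB and PIP libraries lay below them. Without the filter on low counts, PIP cells passed the 2-fold limit, with a log2 fold change of -1.06.

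Igf1, a growth factor made by fibroblasts and also by macrophages, was at 33.9, 27.8, 36.1, 37.5 and 50.2 CPM in PIB cells on day 9, against 27.4, 29.7, 34.4 and 27.5 CPM in C9a.MEF, and the libraries overlapped. On day 3 the PIB libraries had held 9.21, 8.30, 6.27 and 5.92 CPM, a decrease against the fibroblasts (-1.75 ± 0.11, adjusted p = 1.8e-08), and the gene rose between days 9 and 3 by a log2 fold change of 2.09 ± 0.15 (adjusted p = 1.3e-06). In PIP cells Igf1 was at 4.31, 6.36, 5.12 and 6.02 CPM on day 9 and had fallen (-2.22 ± 0.12, adjusted p = 3.9e-11), as on day 3 (-2.10 ± 0.41, adjusted p = 0.0042). In C9a.SII cells it was at 12.2, 25.5, 20.5 and 27.6 CPM on day 9 and not called. In hCD2.SII cells it was at 55.999, 4.19 and 6.12 CPM, against 16.9, 13.9, 18.5 and 14.5 CPM in hCD2.MEF, with replicate 1 above and the others below the fibroblasts. Without replicate 1 it fell (log2 fold change -1.70, adjusted p = 1.3e-05). Whether the macrophage markers of the PIB cells had a part in their Igf1 level was not tested.

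In all, on day 3 1 member rose and 5 fell in PIB cells, where 11.9% of all genes rose and 10.9% fell. In PIP cells 0 rose and 7 fell (10.6% and 11.1% of all genes), and 8 fell without the library of low Ptprc (12.5% and 14.9% of all genes), where Egfr was added (-1.21). For Fgf7 DESeq2 gave no adjusted p. Without that library the log2 fold change was -3.35 for Pdgfra, -1.58 for Pdgfrb, -1.33 for Fgfr1, -2.38 for Fgfr2, -1.71 for Hgf and -2.89 for Igf1. In C9a.SII cells 0 rose and 4 fell (8.84% and 8.71%), and the same 4 fell without replicate 2 (9.11% and 10.4%), with log2 fold changes of -3.46 for Pdgfra, -1.79 for Egfr and -1.40 for Fgfr2. In hCD2.SII cells 0 rose and 5 fell (10.8% and 13.3%). Between days 9 and 3, 4 members rose and 0 fell in PIB cells (3.67% and 8.47% of all genes). With the spread of all 41 groups 2 of these calls remained, those of Igf1 and Hgf, and the adjusted p was 0.15 for Pdgfra and 0.16 for Fgf7. In PIP cells 0 rose and 3 fell (3.25% and 2.95%), a count that dropped to 1 without replicate 3 of day 3 (3.99% and 3.05%) and to 0 with replicate number as a block. In C9a.SII cells 0 were called by edgeR or DESeq2 and 3 had an unadjusted p under 0.05, where 0.103% of all genes were higher and 0.00643% lower. In hCD2.SII cells 1 rose and 0 fell (4.48% and 2.07%). Without replicate 1 of day 9, Hgf still rose while Pdgfra and Pdgfrb fell (-1.74 for Pdgfrb), where 9.42% of all genes rose and 6.26% fell.

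The cocktails were also set against each other on day 9, in double positive cells of the C9a line. In PIB cells 8 members were higher than in PIP cells and 0 were lower, where 10.6% of all genes were higher and 11.01% lower. The differences were widest for the growth factors: the log2 fold change was 4.22 ± 0.14 for Fgf7 (adjusted p = 1.3e-10), 4.0001 ± 0.17 for Hgf (adjusted p = 4.0e-10) and 2.62 ± 0.16 for Igf1 (adjusted p = 1.6e-08). Among the receptors it was 2.09 ± 0.13 for Pdgfra, 2.01 ± 0.22 for Met, 1.63 ± 0.09 for Fgfr1, 1.11 ± 0.14 for Fgfr2 and 1.06 ± 0.06 for Pdgfrb. Egfr and Igf1r were not called. The fibroblast markers summed to 6227 to 7633 CPM in the PIB libraries, against 977 to 1259 in the PIP libraries.

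Against C9a.SII cells, 5 members were higher in PIB cells and 0 lower (8.44% and 10.1% of all genes). These were Met (2.68 ± 0.23), Pdgfra (2.53 ± 0.23), Pdgfrb (2.07 ± 0.08), Hgf (1.35 ± 0.13) and Fgfr1 (1.19 ± 0.18), with adjusted p-values of 5.3e-06, 8.7e-06, 1.5e-08, 9.2e-06 and 0.00035 in that order. In PIP cells 1 member was higher than in C9a.SII cells and 4 were lower (10.9% and 11.5% of all genes). Fgf7 was lower by a log2 fold change of -4.002 ± 0.27, Hgf by -2.61 ± 0.26, Igf1 by -1.88 ± 0.18 and Fgfr2 by -1.81 ± 0.16, with adjusted p-values of 1.7e-06, 1.2e-05, 7.3e-06 and 4.5e-06. Pdgfrb was higher by 1.04 ± 0.09 (adjusted p = 3.3e-06), a call at the 2-fold limit that ended without replicate 4 of C9a.SII (log2 fold change 0.999). Without the shallow replicate 1 of C9a.SII the same members were called in both comparisons, where 9.04% of all genes were higher and 10.3% lower for PIB, and 11.9% and 12.6% for PIP cells. These comparisons share libraries with each other and with those against C9a.MEF.

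Between sort gates, members were called in the hCD2 line. Pdgfra was at 184, 7.92 and 10.9 CPM in double positive hCD2.SII cells on day 9, against 369, 385, 424 and 375 CPM in reporter-gated cells, which were not selected for CD45. The hCD2.MEF libraries held 389, 375, 397 and 359 CPM. The fibroblast markers summed to 677 to 7718 CPM in the double positive cells and to 9664 to 10665 CPM in the reporter-gated cells. Fgfr2 was lower in double positive cells (-1.06 ± 0.28, adjusted p = 0.027), as was Met (-1.03 ± 0.17, adjusted p = 0.0052), a count of 0 higher and 2 lower where 8.08% of all genes were higher and 4.13% lower. With replicate number as a block neither was called, with adjusted p-values of 0.080 for Fgfr2 and 0.050 for Met, and Fgfr2 lost its call when either of replicates 2 and 3, or any reporter-gated library, was left out. Without double positive replicate 1, 7 members were lower, among them Pdgfra (-5.42), Pdgfrb (-3.78), Egfr (-3.38) and Igf1 (-2.67), where 14.97% of all genes were higher and 13.8% lower.

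In the C9a line edgeR called 0 members between double positive and reporter-gated cells on day 9 in each of the 3 cocktails, and DESeq2 called 0 as well, with no adjusted p for Pdgfra in C9a.SII cells. At an unadjusted p under 0.05 there were 6 in PIB, 1 in PIP and 6 in C9a.SII cells. Of all genes 0.94% were higher and 0.762% lower in PIB, 0.0122% and 0% in PIP, and 0.115% and 0.0321% in C9a.SII cells. The gates overlapped in PIP cells, where Pdgfra was at 21.5, 23.1, 25.6 and 19.1 CPM in double positive and 7.36, 25.9, 29.2 and 22.9 CPM in reporter-gated libraries. In PIB cells Egfr was at 50.7 to 67.5 CPM in double positive libraries and at 87.3 to 106.1 CPM in reporter-gated libraries, without overlap and below 2-fold. CD45-gated cells, which need not carry the reporter, spread widely in the SII groups: Pdgfra was at 355, 242, 29.5 and 17.3 CPM in C9a.SII and 293, 8.37 and 25.1 CPM in hCD2.SII on day 9.

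**Figure D4:**
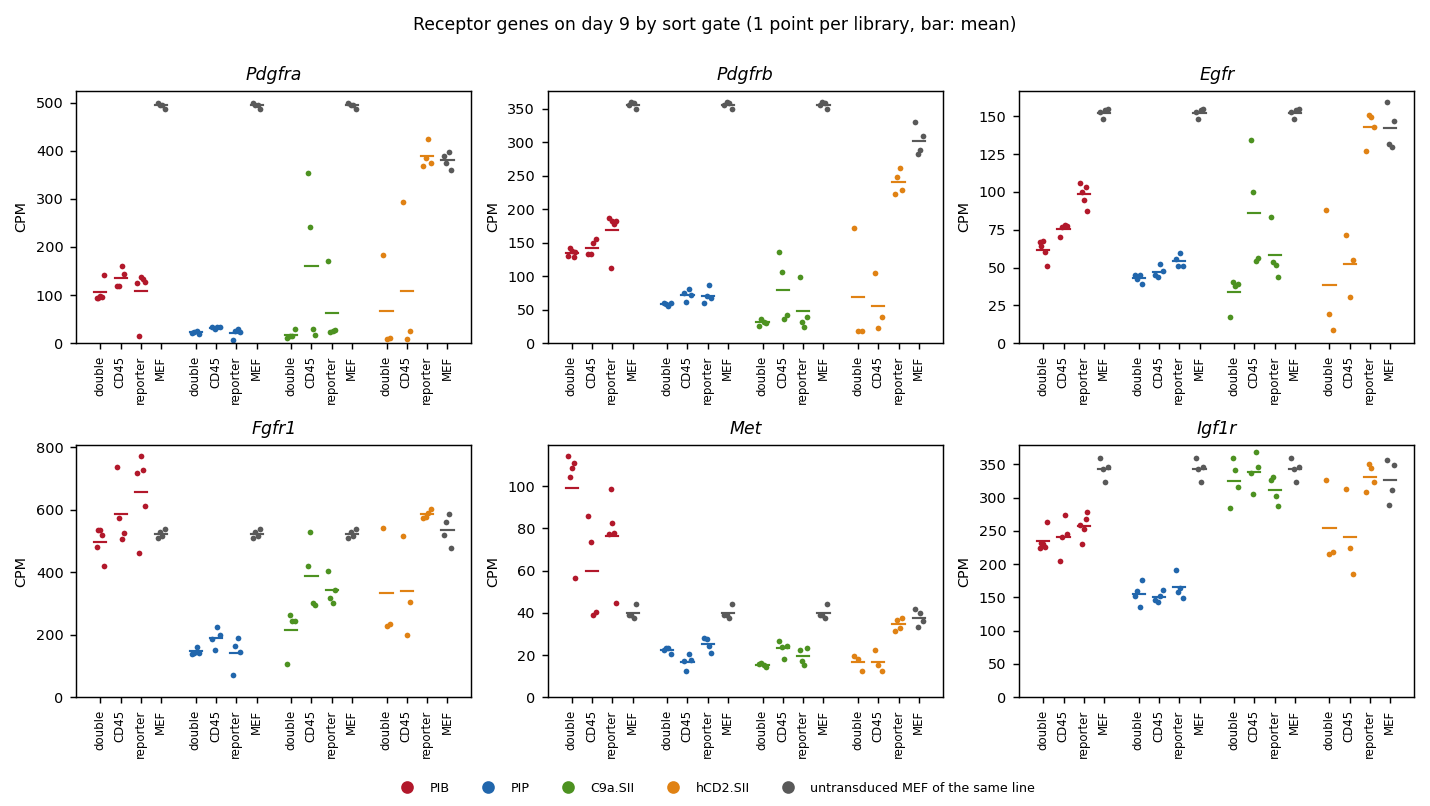
CPM of 6 receptor genes on day 9 in double positive, CD45-gated and reporter-gated cells of each cocktail, with untransduced MEFs of the same line at the right of each set; each point is a library and each bar a group mean. Of the 3 double positive hCD2.SII libraries, 2 lie at 7.92 and 10.9 CPM of Pdgfra, while the reporter-gated libraries lie at 369 to 424 CPM beside the hCD2.MEF libraries.

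Between the untransduced lines edgeR and DESeq2 called 0 members, with 6 at an unadjusted p under 0.05 and 1.43% of all genes called higher and 1.5% lower. Igf1 was at 16.9, 13.9, 18.5 and 14.5 CPM in hCD2.MEF, against 27.4, 29.7, 34.4 and 27.5 CPM in C9a.MEF, and Hgf at 7.05, 6.16, 7.68 and 6.39 CPM, against 12.5, 11.9, 12.04 and 12.03 CPM. Both lay lower in every hCD2.MEF library, by less than 2-fold. In an interaction test of whether the SII change on day 9 differed between the 2 lines, Hgf was the 1 member called higher and 0 were lower, where 0.388% of all genes were higher and 0.18% lower. The lines also differ in the Cre and reporter used for sorting, which the test cannot separate from the line. Without hCD2.SII replicate 1, Hgf stayed higher (1.35, adjusted p = 0.0018), and Egfr (-1.29, adjusted p = 0.028) and Igf1 (-1.31, adjusted p = 0.0050) were lower (1.07% and 3.19% of all genes higher and lower).

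Splenic dendritic cells held little of most members. PIB double positive cells of day 9 were higher than cDC1 for 9 members and lower for 0, where 25.4% of all genes were higher and 32.2% lower. Pdgfrb was at 130.4, 141.95, 137.05, 128.8 and 135.9 CPM in PIB cells, against 3.94, 7.03 and 6.05 CPM in cDC1 (4.90 ± 0.14, adjusted p = 3.8e-13). Met was the exception, at 114.5, 104.4, 108.8, 110.8 and 56.3 CPM in PIB cells, against 64.2, 67.7 and 66.1 CPM in cDC1. The fifth PIB library lay below the cDC1 libraries and the others above them. Without it Met was called higher, with a log2 fold change of 1.08, but that library was picked out by its own Met level. Met was at 7.49, 10.4 and 6.40 CPM in cDC2 and 10.3, 5.59, 5.73, 3.87 and 0.616 CPM in pDC, so that cDC1 held the highest level of the splenic subsets.

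PIP cells were higher than cDC2 for 9 members and lower for 0 (29.3% and 26.7% of all genes). Egfr was at 44.9, 42.3, 44.9 and 39.1 CPM in PIP cells, against 0.272, 0.301 and 0.929 CPM in cDC2. Fgf7 was at 7.38, 4.33, 7.28 and 4.93 CPM in PIP cells, while in cDC2 it was at 0 in 2 libraries and at 0.206 CPM, or 2 counts, in the other. Hgf was not called, at 0.809 to 1.77 CPM in PIP cells, against 1.81 to 2.996 CPM in cDC2. C9a.SII cells were higher than pDC for 7 members and lower for 0 (18.4% and 19.8% of all genes), and hCD2.SII cells for 6 and 0 (15.2% and 17.7%). Without pDC replicate 1 both counts were 8, with Fgfr2 added in both (21.4% and 20.2% of all genes higher and lower for C9a.SII and 20.9% and 17.6% for hCD2.SII cells). Leaving out single libraries ended the calls of Met in both comparisons, with adjusted p-values of up to 0.098, and that of Igf1 in C9a.SII cells, up to 0.099.

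Egfr in pDC was at 40.3, 60.6, 46.5, 45.4 and 59.1 CPM, above cDC1 (7.57, 8.13 and 8.47 CPM) and cDC2, and within the range of the transduced cells. Pdgfra was at 11.3, 14.2, 15.1 and 29.2 CPM in C9a.SII cells, against 36.5, 12.4, 18.5, 10.6 and 2.71 CPM in pDC, with overlap. Without hCD2.SII replicate 1, Egfr was lower in hCD2.SII cells than in pDC (-1.58, adjusted p = 0.019), and 4 members were higher, where 14.1% of all genes were higher and 8.93% lower. Pdgfrb and Met were not called there. The fibroblast marker sum of pDC replicate 1, 1152 CPM, stood beside the highest pDC values of several members, among them Pdgfra, Pdgfrb, Fgfr2, Met, Hgf and Igf1. Its Hgf value rested on 7 counts.

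The other genes of these pathways were taken as 9 lists of 72 genes in all. On day 9, of 59 tested in PIB cells, 9 rose and 19 fell, where 10.4% and 11.4% of all genes rose and fell. Of 59 in PIP cells 8 rose and 23 fell (15.2% and 14.5% of all genes), of 61 in C9a.SII cells 6 rose and 18 fell (10.3% and 11.1%), and of 63 in hCD2.SII cells 8 rose and 8 fell (10.8% and 8.42%). Without hCD2.SII replicate 1, 12 rose and 21 fell of 65 tested there (17.3% and 15.6%). Of the genes named below for hCD2.SII cells, Btc then lost its call (adjusted p = 0.11) and the others kept theirs in the same direction. Levels here are CPM scaled by TMM factors within the comparison, for each group as a mean.

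Among 4 genes for PDGF ligands, Pdgfb rose in PIP cells, at 22.9 ± 4.51 CPM, against 1.01 ± 0.273 CPM in C9a.MEF (4.50 ± 0.20, adjusted p = 4.7e-12). It rose in PIB cells too (1.46 ± 0.29), and Pdgfa fell in both (-1.12 in PIB and -1.52 in PIP). Pdgfd fell in C9a.SII (-2.07 ± 0.18) and hCD2.SII cells (-2.30 ± 0.65). Among 9 other FGF genes, Fgf2, a broad FGF ligand, rose in PIB (1.13 ± 0.23) and hCD2.SII cells (1.91 ± 0.27) and fell in PIP cells (-1.89 ± 0.15). Fgf10, which signals to epithelia through Fgfr2, fell in PIP (-2.94 ± 0.11) and C9a.SII cells (-2.51 ± 0.17), and Fgf1 rose in PIP cells (3.19 ± 0.21). Of 5 other FGF receptor and co-receptor genes, the 2 or 3 tested in each comparison were not called. Without hCD2.SII replicate 1, 4 were tested there and Klb, a co-receptor for hormone-like FGFs, was called higher (2.37, adjusted p = 0.022). The most abundant, Fgfrl1, was at 23.5 ± 0.631 CPM in PIB cells, against 25.4 ± 2.31 CPM in C9a.MEF.

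Among the ErbB relatives of Egfr, Erbb2 fell in PIP (-2.75 ± 0.10), C9a.SII (-1.82 ± 0.10) and hCD2.SII cells (-1.36 ± 0.36), and Erbb4 rose in PIB (1.66 ± 0.47), C9a.SII (2.91 ± 0.35) and hCD2.SII cells (1.81 ± 0.37). The EGF family ligands did not move together. In PIP cells Hbegf, a membrane-anchored ligand of Egfr, was at 109.8 ± 11.6 CPM, against 15.4 ± 1.31 CPM in C9a.MEF (2.83 ± 0.09, adjusted p = 3.3e-14). Tgfa rose there too (3.20 ± 0.17) while Ereg (-3.28 ± 0.18) and Btc (-2.09 ± 0.41) fell. In PIB cells Hbegf rose (1.04 ± 0.35) and Tgfa (-1.64 ± 0.28) and Ereg (-1.14 ± 0.35) fell. In hCD2.SII cells Hbegf (1.03 ± 0.14) and Areg (1.47 ± 0.45) rose, and Btc fell there (-1.15 ± 0.39) and in C9a.SII cells (-1.49 ± 0.43).

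Spint1 and Spint2 code for membrane inhibitors of the proteases that activate Hgf. Spint2 rose in all 4 groups, by log2 fold changes of 1.19 in PIB, 3.03 in PIP, 1.81 in C9a.SII and 2.17 in hCD2.SII cells. Spint1 was at 72.9 ± 6.34 CPM in PIP cells, against 1.62 ± 0.395 CPM in C9a.MEF (5.49 ± 0.12, adjusted p = 3.2e-16), and rose also in PIB (2.81 ± 0.31) and C9a.SII cells (1.26 ± 0.27). Mst1r, the gene of the Met relative Ron, fell in PIB (-1.06), PIP (-1.56) and C9a.SII cells (-1.96).

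All 14 genes of the IGF and insulin list were tested. In PIB cells 0 rose and 9 fell, against 10.4% and 11.4% of all genes, in PIP cells 0 and 8 (15.2% and 14.5%), in C9a.SII cells 1 and 6 (10.3% and 11.1%), and in hCD2.SII cells 1 and 2 (10.8% and 8.42%), or 1 and 8 without replicate 1 (17.3% and 15.6%). The medians of the list's log2 fold changes were -1.28, -1.49, -0.81 and -0.67 in the same order. Igfbp3, a secreted binding protein for insulin-like growth factors, was at 8.29 ± 1.21 CPM in PIB cells, against 302 ± 28.5 CPM in C9a.MEF (-5.18 ± 0.10, adjusted p = 3.6e-13). It fell also in PIP (-3.34 ± 0.07) and C9a.SII cells (-5.03 ± 0.31). Igfbp2, another such protein, rose in C9a.SII (3.48 ± 0.53) and hCD2.SII cells (2.74 ± 0.35). Igf2 fell in hCD2.SII cells (-2.36 ± 0.53), and Irs1, an adaptor of the insulin and Igf1 receptors, fell in PIP cells (-3.11 ± 0.09).

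Among 10 adaptor genes, Grb2, whose protein links active receptors to the signalling proteins below them, rose in all 4 groups. It was at 177 ± 24.05 CPM in PIB cells, against 55.5 ± 3.98 CPM in C9a.MEF (1.67 ± 0.10), and the log2 fold changes were 1.87 ± 0.06 in PIP, 1.37 ± 0.07 in C9a.SII and 1.36 ± 0.14 in hCD2.SII cells. Shc1 fell in PIP (-1.38) and Gab1 in C9a.SII cells (-1.24). Of 13 feedback inhibitors and ERK targets, 1 rose and 6 fell in PIB, against 10.4% and 11.4% of all genes, 1 and 7 in PIP (15.2% and 14.5%), 0 and 6 in C9a.SII (10.3% and 11.1%) and 0 and 2 in hCD2.SII cells (10.8% and 8.42%), or 0 and 8 without replicate 1 (17.3% and 15.6%). Etv4, an ETS factor gene induced by ERK signalling, fell in PIB (-3.99 ± 0.19), C9a.SII (-2.17 ± 0.20) and hCD2.SII cells (-3.22 ± 0.66). Spry1, a feedback inhibitor of receptor kinases, fell in PIP (-4.34 ± 0.20) and C9a.SII cells (-2.59 ± 0.22), and Spry2 in hCD2.SII cells (-1.19 ± 0.35). Dusp4, an ERK phosphatase gene, fell in PIB cells (-2.80 ± 0.24) and rose in PIP cells (1.89 ± 0.08).

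Across the 41 group means, on a log2 CPM scale, members were compared with each other and with 13244 other genes. Most groups derive from the same fibroblast lines, and groups differ in depth, so the correlations are descriptions. The closest pair among the members was Fgfr2 and Fgf7, with Pearson's r of 0.927, and Pdgfra and Pdgfrb had 0.874. Met stood apart, with r between 0.106 (Igf1r) and 0.57 (Pdgfrb) to the other members. Outside the members, the genes with the most similar pattern were Fzd2 for Pdgfra (0.948), Parva for Pdgfrb (0.972), Gja1 for Fgfr1 (0.966) and Pcdhgc5 for Fgfr2 (0.975). They were Akap1 for Egfr (0.923), Trap1 for Met (0.931) and Kank2 for Igf1r (0.971). For the growth factors they were Hoxc6 for Fgf7 (0.983), Grpr for Hgf (0.919) and Lcn2 for Igf1 (0.928).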

How the data were processed

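The authors deposited whole-number counts, 1 row for each of 57010 Ensembl genes. The labels' protocols give extractions of 5000 cells and a stranded pico-input total RNA library kit with 13 to 14 PCR cycles. STAR 2.7.9a, Salmon 1.10.1 and the mm10 build are named in the submitters' processing notes without their roles; the annotation and whether counting used strand are not given in the sources used here. Symbols came from GENCODE M21 for 52029 rows, and the 4981 others stayed in totals and fits. No pair among 266 within groups looked like a repeated deposit, the lowest chi-square being 2.88 per degree of freedom. Depth limits given as 3 counts cover counting error only.

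For each of 25 comparisons edgeR 4.0.16 (R 4.3.3) was fitted to the groups involved, with TMM factors, filterByExpr and a robust quasi-likelihood F test; p-values were adjusted by Benjamini-Hochberg across all genes tested. Calls required adjusted p under 0.05 plus at least a 2-fold change. The standard error is the unshrunk log2 coefficient over the square root of F. Each member passed the low-count filter in each comparison. The fitting functions were run on simulated counts for PIB and hCD2.SII double positive cells of day 9 over fibroblasts and for the interaction. Of simulated 2-fold changes, which lie at the limit for a call, 46%, 21% and 16% were called in that order. Of simulated 4-fold changes 97%, 73% and 65% were called, so larger changes were also missed in the last 2 of these comparisons. Of unchanged genes 0.0321%, 0.0369% and 0.0114% were called. Members, gene lists and comparisons were chosen with earlier results of these data known. Every member was named; of each list, at most 2 called genes per direction (the largest changes) and the most abundant uncalled gene could be named. Likeness is Pearson's r over group means of log2 CPM (prior count 2) for genes reaching 5 CPM in some group. Groups of day 6, of the CD45 gate and of the reporter gate on day 3 served only for levels and for the fit over all groups.

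Alternatives tried were DESeq2 1.42.0 (its size factors in edgeR, and its Wald test), fitting without the filter, blocking by replicate number, a single fit of all 41 groups, dropping each library in turn, TMM-scaled levels and, chosen after seeing the data, dropping libraries below 2000000 counts. Nothing in the labels ties equal replicate numbers together. Same-numbered libraries deviated together (every correlation above 0.1) in 1 of 24 comparisons checked: hCD2.SII double positive cells of day 9 and hCD2.MEF, at 0.109 to 0.218 over 3 pairs. A value of the adaptor gene list is not reported here.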

Additional observations from a re-analysis of the deposited data

Results flagged for a closer look

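A value far from the others of its group of 4 or 5 libraries, by Dixon's test, was found 15 times, in 11.6% of the groups and genes checked; chance gives about 1 in 20. In pDC replicate 1, which had 1838064 counts, Pdgfrb was at 15.8 CPM, Fgfr2 at 19.6 CPM and Igf1 at 17.4 CPM, against at most 5.28, 4.35 and 3.73 CPM in the other pDC libraries. In the shallow C9a.SII double positive replicate 1 on day 9, Fgfr1 was at 107.2 CPM and Egfr at 17.4 CPM, below the other libraries, which began at 245 and 37.7 CPM.

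Replicate 5 of the PIB double positive cells on day 9 had Pdgfra at 142.7 CPM and Igf1r at 263 CPM, above the other libraries, and Met at 56.3 CPM, below them. Replicate 2 of the PIB reporter-gated cells on day 9 had Pdgfra at 15.5 CPM, against 125.6 to 138.2 CPM in the others, and Pdgfrb at 111.6 CPM. Replicate 1 of the C9a.SII reporter-gated cells on day 9 had Pdgfra at 171 CPM, against 23.4 to 27.3 CPM, and Hgf at 35.996 CPM, against 12.3 to 14.4 CPM. Fgfr2 was high in PIB double positive replicate 2 on day 3 (19.6 CPM), and Hgf was high in C9a.SII double positive replicate 4 on day 3 (16.3 CPM). Igf1 was at 0.517 CPM in PIP reporter-gated replicate 1 on day 9, against 5.10 to 5.59 CPM in the other libraries.

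The response of Hgf to SII differed between the lines by 1.64 on the log2 scale in the interaction test (adjusted p = 0.011). The call was lost with replicate number as a block (adjusted p = 0.30) and with the spread of all groups (adjusted p = 0.54).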

How the results depend on the processing

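The 10 members in 25 comparisons gave 250 results. Most of these were uncalled in the edgeR fit. Of the called results alone, 18 were lost under at least 1 alternative and 0 changed sign. The single fit over all groups moved the most: 23 of the 250 changed their call and 5 changed sign. Without the low-count filter 9 changed their call and 3 changed sign, and with the replicate block 10 and 9 did so. With DESeq2 size factors 0 of the 250 changed their call and 1, uncalled, changed sign. The DESeq2 Wald test gave no adjusted p for 19, of which 2 were called in the edgeR fit (Fgf7 in PIP cells on day 3 and Pdgfrb in hCD2.SII cells over pDC); of the others 3 became called and 3 changed sign. Blocking by replicate number changed the calls given in the text and also made Met in PIB cells over cDC1 (1.01) and Fgfr2 in C9a.SII (1.86) and hCD2.SII cells over pDC (1.72) called; it changed no other of the 250 calls. It left Pdgfra in PIP cells between days 9 and 3 at -0.99.

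The genes called, as a percent of all 57010 in the table, moved past 1.5 times as follows, against 3.35 (PIB), 1.72 (PIP), 0.0298 (C9a.SII) and 1.84 (hCD2.SII) between days 9 and 3, and 0.454, 0.00351, 0.0403 and 3.46 between gates. Without the low-count filter it was 5.48, 2.61, 0.223 and 3.51 between days, and 0.270 (PIP) and 0.356 (C9a.SII) between gates. With the DESeq2 Wald test it was 5.05 (PIB) and 0.370 (C9a.SII) between days, and 0.142 (PIP) and 0.203 (C9a.SII) between gates. With the replicate block it was 0.923 (PIP), 0.00351 (C9a.SII) and 0.788 (hCD2.SII) between days, and 0.00175, 0.0105 and 1.11 between gates. With 1 fit over all groups it was 0.917 (PIP) and 0.788 (C9a.SII) between days, and 0.225 (PIB) and 0.451 (C9a.SII) between gates. For hCD2.MEF over C9a.MEF (0.789) it was 1.28 without the filter and 0.0333 in 1 fit over all groups. For PIB over cDC1 (19.2) it was 33.3 without the filter. For C9a.SII over pDC (10.4) it was 20.5 without the filter, 16.3 by Wald test, 21.9 over all groups and 15.8 without libraries under 2000000 counts. For hCD2.SII over pDC (10.1) it was 18.6 over all groups, and for the interaction (0.177) 0.440 by Wald test and 0.00877 with the block.

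Members called moved with the block to 0 lower in PIP cells between days 9 and 3, 0 lower for the hCD2.SII gate and 0 higher for the interaction. With 1 fit over all groups they moved to 1 higher in PIB and 0 higher and 4 lower in hCD2.SII cells over fibroblasts. It gave 2 higher in PIB (Fgf7 and Pdgfra lost) and 0 lower in PIP cells between days 9 and 3, 4 lower for the hCD2.SII gate, and 0 higher for PIP over C9a.SII and for the interaction. The causes were not tested.

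Values that changed sign were all uncalled in the full fit. In hCD2.SII cells Igf1 over fibroblasts was -0.48 with the block and -1.70 to 0.97 leaving out 1 library. Between days 9 and 3 Pdgfra was -0.85 with the block and -2.25 to 1.13 leaving out 1 library, and Pdgfrb -0.70 and -1.74 to 0.69. Igf1 between gates was -2.67 to 0.0081, highest without replicate 2. Over pDC, Pdgfra was -0.11 to 0.91 in C9a.SII and -0.46 to 2.99 in hCD2.SII cells, and Egfr in hCD2.SII cells was -1.58 to 0.31, 0.21 without the filter, 0.034 by Wald test and 0.084 over all groups. In the interaction Egfr was -0.061 with the block and -1.29 to 0.70 leaving out 1 library, and Igf1 -1.31 to 1.33; the lowest values in hCD2.SII cells are those without replicate 1 of day 9.

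Leaving out 1 library at a time, the percent of the table called over fibroblasts on day 3 was 5.91 to 6.95 in PIB, 5.32 to 7.85 in PIP (members lower 7 to 8), 4.34 to 6.25 in C9a.SII (3 to 5) and 6.49 to 7.23 in hCD2.SII cells (5 to 6). On day 9 it was 5.73 to 6.22, 8.35 to 8.70, 5.71 to 6.66 and 4.02 to 10.2 (members higher 0 to 1, lower 1 to 7). Between days 9 and 3 it was 2.46 to 3.92 (members higher 3 to 4), 1.07 to 2.04 (lower 1 to 3), 0 to 0.444 and 0.961 to 4.68 (lower 0 to 2). Between gates it was 0.293 to 0.624 (lower 0 to 1), 0.00175 to 0.0649, 0.00877 to 0.0667 and 2.003 to 8.66 (lower 0 to 7). It was 5.53 to 6.47 for PIB over PIP, 4.59 to 5.54 for PIB over C9a.SII, 5.97 to 6.98 for PIP over C9a.SII (higher 0 to 1) and 0.5683 to 1.27 for the lines. Over spleen it was 17.8 to 21.5 (higher 9 to 10), 15.7 to 17.3, 8.78 to 14.7 (5 to 8) and 6.87 to 11.8 (higher 4 to 8, lower 0 to 1), and for the interaction 0.0807 to 1.42 (lower 0 to 2). The median of all genes in hCD2.SII over pDC was -0.24 with TMM and -0.11 with DESeq2 size factors. Depth limits Hgf in PIP cells and, in cDC2, members such as Fgf7, Igf1 and Egfr, at means of 0.0688, 0.413 and 0.501 CPM. Fgfr1 and Igf1r, with 808 and 701 counts in cDC2, lay well above that limit.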
